A study of Mus musculus with 4 samples.

Results

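Ring1B peaks in gene deserts are the peaks of the Ring1B list that lay more than 100 kb from every annotated TSS of a protein-coding gene. They were chosen by position alone and number 1524 of 10119 Ring1B peaks, a share of 15.1% (95% Wilson interval 14.4% to 15.8%). The data come from E14 mES cells, a feeder-free mouse embryonic stem cell line of strain 129/Ola at passage 3-5, kept under 2i + LIF, with 1000 U/ml of LIF, 1 μM of the MEK inhibitor PD0325901 and 3 μM of the GSK inhibitor CHIR99021. Cells were fixed in 1% formaldehyde, and 4 libraries were sequenced, 1 each for Ring1B, Dzip3 and ubH2A ChIP and for input DNA, with no perturbation and no second condition. Because there is 1 library for each target, no value has a replicate error and no test between libraries was possible. All intervals are 95% Wilson intervals over peaks, cover counting error only, and treat as separate the peaks that share a repeated sequence or a locus.

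Ring1B is the catalytic subunit of polycomb repressive complex 1 (PRC1), which attaches a single ubiquitin to a lysine in the tail of histone H2A and so marks repressed developmental genes in ES cells. Dzip3 is another E3 ligase that acts on the same lysine, and ubH2A is the modified histone itself. In mammals PRC1 is best known from CpG islands, GC-rich stretches that keep their CG dinucleotides and that often overlap promoters. Gene deserts are long stretches with few or no protein-coding genes. Several lie beside genes for developmental transcription factors and hold distant regulatory elements of those genes.

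Desert peaks differed in sequence, from repeated words to unique CpG-rich stretches, and examples are shown because the overlap with the other lists and the reads differed with it. All are on the plus strand of mm9. The first is the centre of the highest desert peak that overlaps no input peak, 252.6 kb from the TSS of Zfp326, which is a short tandem repeat with 0 CG dinucleotides and so has no capitals.
chr5:106586540-106586839: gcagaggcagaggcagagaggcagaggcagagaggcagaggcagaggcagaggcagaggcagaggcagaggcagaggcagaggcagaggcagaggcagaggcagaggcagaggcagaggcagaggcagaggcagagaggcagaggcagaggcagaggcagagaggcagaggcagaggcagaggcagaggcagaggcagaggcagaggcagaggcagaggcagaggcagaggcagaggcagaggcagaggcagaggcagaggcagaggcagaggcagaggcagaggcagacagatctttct
The second is the next highest peak, 467.7 kb from Gm1140, and its capitals mark a 24-base word that 58 desert peaks shared.
chrX:64478715-64479014: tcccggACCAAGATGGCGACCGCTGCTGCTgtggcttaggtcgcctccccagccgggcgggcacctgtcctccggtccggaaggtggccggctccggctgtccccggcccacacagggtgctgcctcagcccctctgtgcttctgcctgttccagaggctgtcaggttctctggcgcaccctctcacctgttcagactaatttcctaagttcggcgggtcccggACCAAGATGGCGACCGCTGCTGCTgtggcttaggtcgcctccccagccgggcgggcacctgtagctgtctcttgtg
The third comes from an intron of Sntg1, 233913 bp from its TSS, and its capitals mark the 24-base word found in more desert peaks than any other, 66 of them.
chr1:9054104-9054403: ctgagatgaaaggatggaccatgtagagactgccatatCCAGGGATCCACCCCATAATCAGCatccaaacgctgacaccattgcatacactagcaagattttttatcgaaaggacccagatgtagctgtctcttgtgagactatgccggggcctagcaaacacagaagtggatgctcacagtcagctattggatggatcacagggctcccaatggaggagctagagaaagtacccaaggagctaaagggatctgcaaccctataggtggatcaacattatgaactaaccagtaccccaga
The next pair, 194.6 kb from Tead1 and 176.7 kb from Gdi2, hold 33 and 37 CG dinucleotides, in capitals, in 300 bases and overlap no peak of the other lists.
chr7:120098256-120098555: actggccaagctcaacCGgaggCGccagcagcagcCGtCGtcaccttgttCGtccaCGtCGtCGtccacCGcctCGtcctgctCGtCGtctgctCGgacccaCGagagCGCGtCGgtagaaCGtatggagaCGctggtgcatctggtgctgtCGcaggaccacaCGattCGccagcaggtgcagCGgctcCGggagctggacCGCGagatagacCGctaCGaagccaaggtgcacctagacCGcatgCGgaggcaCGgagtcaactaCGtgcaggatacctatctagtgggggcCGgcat
chr13:3360254-3360553: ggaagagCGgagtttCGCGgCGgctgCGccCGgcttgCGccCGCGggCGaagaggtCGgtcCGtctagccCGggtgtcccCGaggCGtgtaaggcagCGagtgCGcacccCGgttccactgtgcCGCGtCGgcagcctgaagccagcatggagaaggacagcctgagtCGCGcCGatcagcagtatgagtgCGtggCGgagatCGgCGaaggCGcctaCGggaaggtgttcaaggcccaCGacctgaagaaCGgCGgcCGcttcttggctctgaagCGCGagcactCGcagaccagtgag
The last is from a run of 5 peaks between Cxcr7 and Cops8, a tandem array with 0 CG dinucleotides.
chr1:92342934-92343233: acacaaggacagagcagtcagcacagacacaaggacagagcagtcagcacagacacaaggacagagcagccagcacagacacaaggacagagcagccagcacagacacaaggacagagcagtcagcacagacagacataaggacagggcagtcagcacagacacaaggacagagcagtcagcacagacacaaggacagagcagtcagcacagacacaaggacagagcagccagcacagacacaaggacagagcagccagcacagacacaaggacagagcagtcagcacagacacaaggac

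The territory beyond 100 kb of every protein-coding TSS made up 922 Mb, or 36.0% of the sequenced bases of chromosomes 1 to 19, X and Y. It held 1.65 Ring1B peaks per Mb, against 3.55 in the territory 4 to 100 kb from a TSS, which held 4872 peaks, and 14.2 within 4 kb, which held 3723 and is called promoter territory here. Desert peaks were therefore sparser per base than either. The median distance to the nearest TSS was 223 kb, with quartiles of 151 and 363 kb. Of the 1524 peaks, 851 lay beyond 200 kb, 221 beyond 500 kb, 55 beyond 1000 kb and 3 beyond 2000 kb. The median gap between the TSS on either side was 819 kb, and 110 peaks had no TSS on 1 side. The nearest peak inside the limit lay 99999 bp from Gm15319 with 93 Ring1B reads and a fold of 1.63, and the nearest outside it 100076 bp from Pik3c2g, with 81 reads and a fold of 3.90. The limit did not fall at a break in the distances. Per chromosome, the density of desert peaks lay between 0.864 per Mb on chromosome 14 and 2.39 per Mb on chromosome 7, except for chromosome Y. On Y there were 49 peaks in 0.895 Mb, and 47 of them overlapped an input peak.

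The farthest peak, chr1:103988126-103988335, lay 2319 kb from Cntnap5b and overlapped an input peak. It held 64 Ring1B, 29 Dzip3, 34 ubH2A and 34 input reads, and the listed fold over input was 1.67. The peak chr1:104524768-104525099, in the same gene-poor interval and 2140 kb from Cdh20, overlapped no input peak and held 102 Ring1B, 43 Dzip3, 114 ubH2A and 16 input reads. The third, chr14:82811507-82811717, lay 2032 kb from Pcdh17, a protocadherin gene, and held 78 Ring1B, 89 Dzip3, 54 ubH2A and 13 input reads. The remaining pair were 1837 kb from Acvr2a, an activin receptor gene, and 1815 kb from D3Ertd751e, with 34 and 54 Ring1B reads. Apart from the second, the sequence of these 5 peaks was 87.2% to 100% made of 31-base words that occur elsewhere in the genome.

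Desert peaks overlapped the Dzip3 and ubH2A lists more often than Ring1B peaks nearer to genes. A Dzip3 peak overlapped 878 of them by at least 1 bp, a share of 57.6% (55.1% to 60.1%), where 32.5% of all Ring1B peaks did. The share was 41.8% at 4 to 100 kb and 10.2% at promoters, and the 3 intervals do not overlap. A ubH2A peak overlapped 801 desert peaks, or 52.6% (50.05% to 55.1%), where 33.2% of all Ring1B peaks did. It was 43.9% at 4 to 100 kb and 11.3% at promoters. No other list had a peak at 477 desert peaks, or 31.3% (29.02% to 33.7%), against 58.5% of all Ring1B peaks and 86.2% of those at promoters. The share with no other list was 12.8% among desert peaks of at least the median height and 53.8% among those with mostly unique sequence. The lists were called down to 33 extended reads for Dzip3, 32 for ubH2A and 15 for input, so that a weaker signal was not detectable as a peak.

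An input peak overlapped 334 desert peaks, a share of 21.9% (19.9% to 24.1%), where 16.2% of all Ring1B peaks did. The share at 4 to 100 kb was 21.9% as well, and at promoters it was 6.34%. Among the 1190 desert peaks with no input peak, 48.2% overlapped the Dzip3 list and 40.5% the ubH2A list. Counted in the same way, the shares were 29.5% and 29.9% at 4 to 100 kb and 5.13% and 5.65% at promoters. The order of the 3 distance classes was thus the same with the input-overlapping peaks left out.

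**Figure D1:**
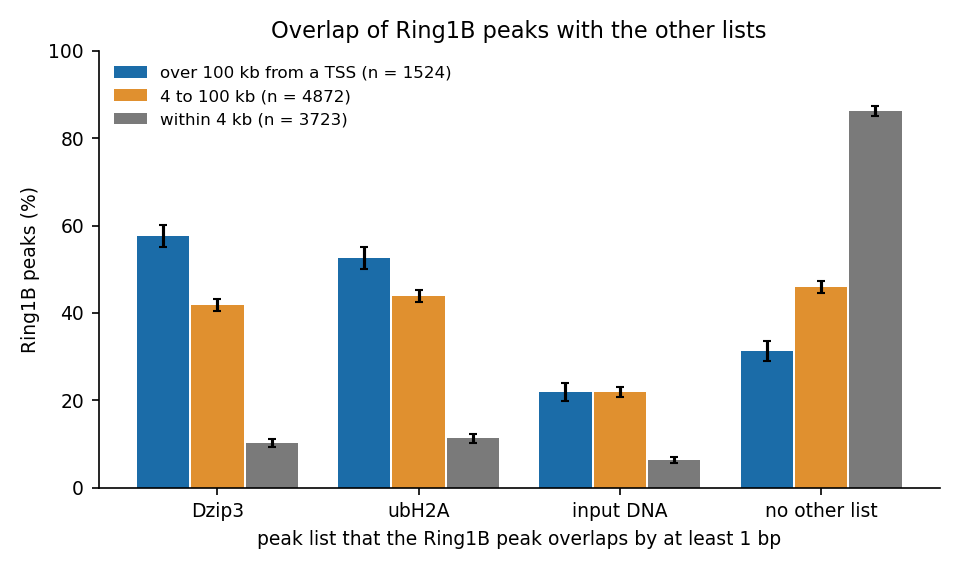
Share of Ring1B peaks, in percent, that overlap a Dzip3, ubH2A or input peak by at least 1 bp, or no other list, for peaks over 100 kb from a TSS (blue), 4 to 100 kb from one (orange) and within 4 kb (grey). Error bars are 95% Wilson intervals, and the Dzip3 share was 57.6% in deserts, 41.8% at 4 to 100 kb and 10.2% at promoters.

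The combinations of lists divided the desert peaks into groups with different read numbers. Both Dzip3 and ubH2A without input overlapped 343 peaks (22.5%), all 3 lists 299 (19.6%), Dzip3 alone 231 (15.2%) and ubH2A alone 139 (9.12%). Input without Dzip3 was found at 20 peaks with ubH2A and 10 without it. The 477 peaks with no other list had a median of 290.0 Ring1B, 110 Dzip3, 121 ubH2A and 18.2 input reads per kb and a median fold over input of 11.99. The 299 peaks with all lists had 466, 527, 634 and 213 reads per kb and a median fold of 1.87. In those 299 peaks the reads of every library were higher than in any other of these groups but for input, where the 5 peaks with Dzip3 and input only had 232 reads per kb.

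For Dzip3 and ubH2A the reads within the Ring1B peaks showed the same order of the classes as the lists, and they do not depend on where the Dzip3 and ubH2A lists were cut. The median was 310 Ring1B, 257 Dzip3, 230.0 ubH2A and 31.8 input reads per kb in desert peaks. At 4 to 100 kb the medians were 308, 181, 193 and 25.5, and at promoters 325, 64.8, 70.8 and 9.90. The Ring1B level was thus much the same in the 3 classes, all of which were cut at the same height of 31 extended reads, while the reads of the other 3 libraries were highest in deserts. Scaled to library size, the ratio of Dzip3 to Ring1B reads within a peak had a median of 0.800 in deserts, with quartiles of 0.475 and 1.14. It was 0.582 at 4 to 100 kb and 0.186 at promoters. The ratio of ubH2A to Ring1B had medians of 0.580, 0.479 and 0.165. In 527 desert peaks (34.6%, 32.2% to 37.0%) the scaled Dzip3 reads were above the Ring1B reads, and at promoters this held for 5.26%. The input level moved in the same direction as the Dzip3 and ubH2A levels across the classes, and its part in them was not tested. With input-overlapping peaks left out, the scaled Dzip3 to Ring1B ratio was 0.706 in deserts, 0.468 at 4 to 100 kb and 0.172 at promoters.

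**Figure D2:**
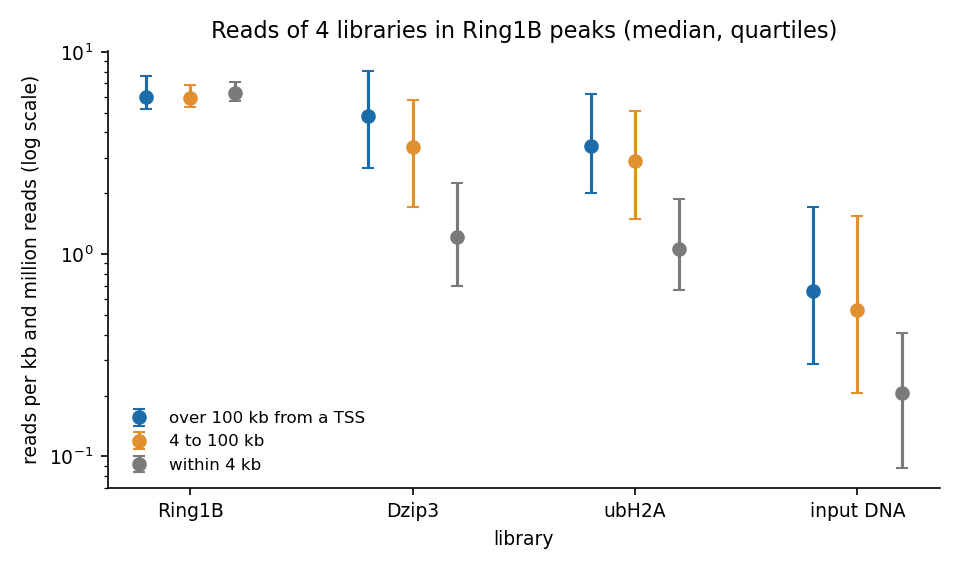
Reads per kb of peak, scaled to library size (per 1e6 reads of the library), on a log axis, for the 4 libraries in Ring1B peaks over 100 kb from a TSS (blue), 4 to 100 kb from one (orange) and within 4 kb (grey). Points are medians and bars run between the quartiles over peaks. The Ring1B points lie at 5.94 to 6.27, while the Dzip3 points fall from 4.82 in deserts to 1.22 at promoters.

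The listed fold over input DNA was lower in deserts. Its median was 7.96, with quartiles of 3.82 and 16.8, against 9.60 at 4 to 100 kb and 25.1 at promoters. A fold of 10 or more was listed for 644 desert peaks (42.3%, 39.8% to 44.8%), where 59.9% of all Ring1B peaks reached it, and a fold below 1 for 84. In 97 desert peaks there was no input read, and there the listed fold equals the Ring1B reads plus 1, so it is not given for single peaks. The fold follows input as well as Ring1B, and without the input-overlapping peaks its median was 10.8 in deserts, 13.1 at 4 to 100 kb and 27.4 at promoters. The range of heights was wide. The median was 0.811 RPM, the 95th percentile 3.45 RPM and the highest 482 RPM, and this highest peak overlapped an input peak.

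The 10 highest desert peaks without an input peak stood in mostly repeated sequence, with 1 exception, and all 10 also overlapped a Dzip3 peak. The exception by this measure was chr14:59277493-59277723, with a repeated share of 31-base words of 33.3% and a median of 1 copy. It contains tandem TTAGGG all the same, with 14 copies of this hexamer. It held 240 Ring1B, 192 Dzip3, 189 ubH2A and 11 input reads. The peak chr5:106586489-106586890, between Zfp326 and the homeobox gene Barhl2, reached 31.5 RPM. It held 3281 Ring1B, 2527 Dzip3, 38 ubH2A and 4 input reads. High Ring1B and Dzip3 reads went with ubH2A reads no higher than at an ordinary desert peak, and it was the only one of the 10 that overlapped no ubH2A peak. The peak chrX:64478711-64479017 had 940 Ring1B, 727 Dzip3, 73 ubH2A and 0 input reads.

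The peak chr4:13222909-13223307 holds the same 24-base word as that on chromosome X shown above. It lay 447.3 kb from Runx1t1, which encodes a transcriptional corepressor, with 454 Ring1B, 297 Dzip3, 284 ubH2A and 0 input reads. Of its 31-base words, 100% occurred more than once in the genome, with a median of 1856 copies.

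The peak chr18:13454958-13457540, 289.4 kb from Hrh4, a histamine receptor gene, was also the longest desert peak without an input peak, at 2582 bp. It held 1972 Ring1B, 1563 Dzip3, 2189 ubH2A and 81 input reads. The peak chr13:86489480-86489858, 303.0 kb from Cox7c, had 497 Ring1B, 317 Dzip3, 524 ubH2A and 14 input reads. The peak chr2:107818643-107819016, 687.1 kb from the potassium channel gene Kcna4, had 451, 372, 100 and 6 reads in the same order. Over these 3 peaks the ubH2A reads, from the library with most reads, varied more against Ring1B than the Dzip3 reads did.

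Lower among the 10 were chr3:21597147-21597674 and chr9:81931655-81932071. The first, 377.9 kb from Tbl1xr1, which encodes a subunit of nuclear receptor corepressor complexes, held 236 Ring1B, 259 Dzip3, 185 ubH2A and 20 input reads, and it contains tandem TTAGGG. The second, in an intron of Mei4, a gene of meiotic recombination, held 422, 413, 220 and 22.

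Most Dzip3 reads per kb without an input peak were found at the first 2 of these peaks and at 3 further ones, in which the Dzip3 reads were above the Ring1B reads. The peak chr6:56462071-56462295, 142.4 kb from Pde1c, a phosphodiesterase gene, held 324 Ring1B, 466 Dzip3, 681 ubH2A and 5 input reads. At chr6:35726181-35726401, 236.3 kb from Mtpn, the reads were 258 Ring1B, 444 Dzip3, 43 ubH2A and 9 input. The 2 peaks had like Dzip3 reads, while the ubH2A reads of the second were the lower and formed no ubH2A peak. The peak chr4:10573511-10573751, inside a non-coding gene and 227.9 kb from 2610301B20Rik, had 348, 464, 282 and 14 reads. In all 3 the median 31-base word occurred between 6211 and 8824 times in the genome.

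After the chromosome 18 peak, the longest desert peaks without an input peak were chr8:82711883-82713485, the Rassf10 peak described next, chr16:3239168-3240475 and chrX:166578287-166579390. The first, 129978 bp from Hhip, which encodes a Hedgehog-binding protein, was 1602 bp long and held 557 Ring1B, 328 Dzip3, 379 ubH2A and 28 input reads. The chromosome 16 peak, 351.9 kb from Olfr161, was 1307 bp long and held 534, 741, 645 and 69. That on X, 1103 bp long, held 444, 475, 463 and 53. At least as many Dzip3 as Ring1B reads lay in the last 2, and fewer in the first.

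Of the 5 highest peaks with no other list and no input peak, 3 were CpG-rich and the other two had almost no CG. The highest, chr7:120097700-120099111, spanned the start of Rassf10, a Ras association domain gene that this annotation classes as a pseudogene. Its 706 Ring1B reads stood against 154 Dzip3, 108 ubH2A and 15 input reads, and its listed fold was 40.0. Its CpG observed to expected ratio was 0.879, and it counts as a desert peak only through that class. The adjacent peaks chr13:3358546-3359482 and chr13:3360199-3360607 held 422 and 189 reads of Ring1B, 49 and 40 of Dzip3, 50 and 23 of ubH2A and 14 and 0 of input. The fourth, chr12:80740643-80741086 in an intron of Rad51l1, a gene of homologous recombination, held 169 Ring1B, 71 Dzip3, 42 ubH2A and 3 input reads and had a CpG ratio of 0. The last, chr18:4812137-4812626, 107.9 kb from Svil, held 181, 77, 61 and 7.

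By position, 1272 desert peaks (83.5%, 81.5% to 85.2%) were intergenic, 193 (12.7%, 11.1% to 14.4%) lay in introns of protein-coding genes, 47 (3.08%) in non-coding genes and 12 (0.787%) in exons, by the centre of the peak. Intergenic bases were 81.1% of the desert territory and introns 16.3%, so that introns held fewer desert peaks than their share of bases, while exons, with 0.242% of bases, held more. Without the input-overlapping peaks the intronic share was 14.5%, nearer to that of the bases. A Dzip3 peak overlapped 60.1% of the intergenic peaks (57.3% to 62.7%) and 46.1% of the intronic ones (39.2% to 53.2%), and the intervals do not overlap. An input peak overlapped 24.2% and 10.4% of them. Of the 12 exonic peaks, 1 overlapped a Dzip3 peak and 0 an input peak, with an interval that reaches 24.2%. The exonic peaks had a median GC content of 61.9%, against 47.8% in the intergenic and 48.8% in the intronic peaks.

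The peaks in introns and exons were spread over 145 protein-coding genes with a median length of 484 kb, 109 of them over 300 kb long, and 103 genes held 1 peak each. Ptprn2, which encodes a receptor-type phosphatase of secretory vesicles and spans 792 kb of chromosome 12, held most desert peaks, 6 of its 8 Ring1B peaks. Their Ring1B reads were 73, 54, 92, 60, 65 and 62 and their Dzip3 reads 4, 29, 109, 22, 72 and 9, in order along the gene. Ring1B varied little between the 6 and Dzip3 widely. The cut of the Ring1B list at 31 extended reads bounds Ring1B from below, while the Dzip3 reads had no such limit. Of the 6 peaks, 2 overlapped a Dzip3 peak, 1 a ubH2A peak and 0 an input peak.

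Lrp1b, a giant endocytic receptor gene of 2058 kb, held 4 peaks, all of which overlapped a Dzip3 peak and 2 an input peak. Their Ring1B reads were 185, 568, 123 and 106, and their Dzip3 reads 223, 655, 210 and 84. The 2 with an input peak held 19 and 67 input reads, and the other 2 held 1 input read each. Snx29, which encodes a sorting nexin, showed the opposite in its 4 peaks, with Ring1B reads of 52, 79, 66 and 62 and no Dzip3 peak. Its Dzip3 reads were 19, 67, 53 and 9.

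Another 10 genes held 3 desert peaks each. Sox5, a transcription factor gene of cartilage and neural development, had Ring1B reads of 60, 66 and 58 with 1 to 2 input reads in each, and 2 of its peaks overlapped a Dzip3 peak. In Tmem132d the Ring1B reads were 57, 97 and 55, the Dzip3 reads 11, 10 and 32, and no peak overlapped another list. In Agbl4, 2 of the 3 peaks overlapped input peaks, with 89 and 253 input reads, and the lowest listed fold was 0.425. Gm20388, an annotated locus of 4435 kb that holds 132 Ring1B peaks, contributed 3, and the remaining genes of this kind were Ankrd44, Ctnnd2, Lrrc4c, Nlgn1, Pcdh15 and Ptprm.

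A TSS of a gene of another class, which the selection did not use, lay within 4 kb of 96 desert peaks (6.30%, 5.19% to 7.63%). These were 42 snoRNA, 22 pseudogene, 12 lincRNA, 6 snRNA, 5 miRNA, 5 immunoglobulin variable, 3 processed transcript and 1 rRNA TSS. The snoRNA peaks were largely of SNORD116, a tandem family of guide RNAs in the imprinted region beside Snrpn. The SNORD116 peak chr7:67029038-67029519, for example, held 272 Ring1B, 209 Dzip3, 262 ubH2A and 29 input reads. Near a SNORA17 copy, chr3:14271202-14271547 held 365, 522, 140 and 1. The peak chr13:10359380-10359779, 655 bp from the TSS of Gm16950, had a CpG ratio of 0.913 and held 135 Ring1B, 35 Dzip3, 40 ubH2A and 0 input reads.

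Desert peaks were unevenly spread. Joining peaks no more than 50 kb apart gave 979 single peaks and 169 runs of 2 or more, which held 545 peaks (35.8%, 33.4% to 38.2%). Of the runs, 117 had 2 peaks, 18 had 5 or more and 7 had 10 or more, and the last held 134 peaks. The median gap between neighbours was 621 kb, and 159 gaps were within 1 kb. Of 840 windows of 1 Mb with a desert peak 507 had 1, while the 10 densest held 187 peaks. The peaks fell into 761 intervals between neighbouring TSS, of which 35 held 5 or more. The interval between C230091D08Rik and Snrpn held 38 in 577 kb, that between Gm9257 and Gm10479 held 17, and that between Nphp4 and Ajap1 held 11.

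Peaks in runs differed from single ones in copy number, and in overlap with input through chromosome Y. An input peak overlapped 27.2% of peaks in runs (23.6% to 31.04%) and 19.0% of single peaks (16.7% to 21.6%). Without chromosome Y the input shares were 20.7% (17.4% to 24.5%) and 18.8% (16.5% to 21.4%), and the intervals overlap. A Dzip3 peak overlapped 57.8% and 57.5%, and without Y 53.8% and 57.5%. The median listed fold was 6.43 in runs and 8.99 for single peaks, and without Y 7.29 and 9.10. The median 31-base word occurred 4 times in the genome for peaks in runs and 654.5 times for single peaks. The Ring1B reads were alike, with medians of 312.5 and 308 per kb.

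**Figure D3:**
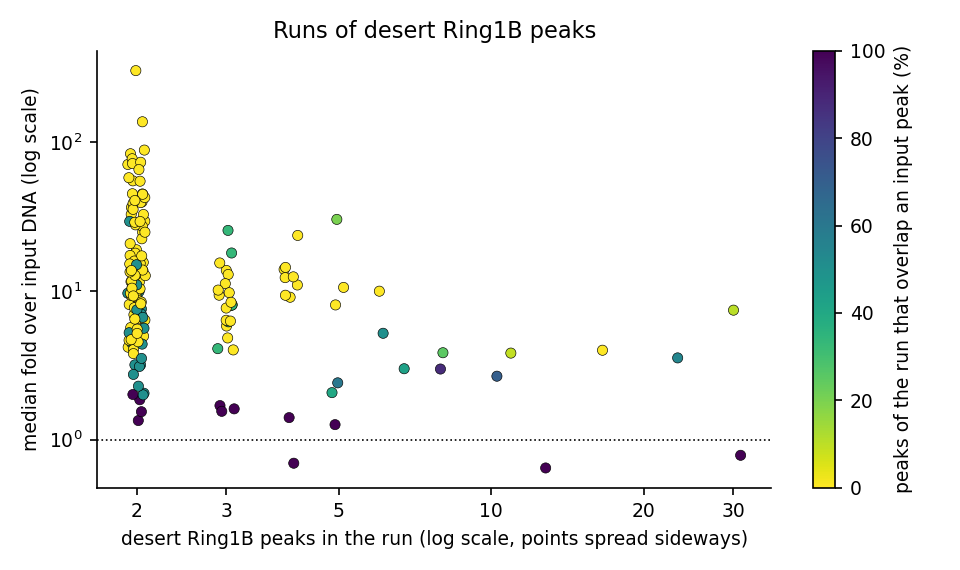
Each point is 1 of the 169 runs of desert Ring1B peaks, with its number of peaks on a log x axis, the median listed fold over input DNA on a log y axis, and the share of its peaks that overlap an input peak, in percent, as colour. The Y chromosome runs of 31 and 13 peaks lie below a fold of 1, at 0.784 and 0.644, and the X chromosome run of 29 at 7.42.

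The longest run by peak number, chrY:2849674-2902564, held 31 peaks, all of which overlapped peaks of Dzip3, ubH2A and input. Its median was 937 Ring1B and 792 input reads per peak and its median fold 0.784, with a range of 0.148 to 1.66. A second run on Y, chrY:2777518-2797567, held 13 peaks of the same kind with a median fold of 0.644. In the run of 31 the input reads, with a median of 1086 per kb, were above the Ring1B reads, with 737. The run chr7:67004467-67047595 of 24 peaks, in the SNORD116 region, held 13 peaks with input, and its fold ran from 1.06 to 8.21.

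Overlap with input was lower in 2 other runs of the 5 with most peaks. The run chrX:166578287-166650467, 154.7 kb from Gm17379, held 29 peaks in 72.2 kb. Of these 20 overlapped a Dzip3 peak, 24 a ubH2A peak and 3 an input peak. Their Ring1B reads ran from 59 to 3936 with a median of 114, and the median fold was 7.42. The run stands near the end of the assembled chromosome, with no protein-coding TSS beyond it. The run chr12:20202578-20316488 held 16 peaks with 0 input overlaps, of which 4 overlapped a Dzip3 peak, and its median fold was 3.99.

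Of the 169 runs of 2 or more, 117 held no peak with input. The run chr12:22783401-22931183 was the longest of them, with 6 peaks in 148 kb and a median fold of 9.95, and chr12:19100341-19179799 held 4 peaks in 79.5 kb with a median fold of 9.35. In the run chr1:92342362-92345123, whose tandem array is shown above, all 5 peaks overlapped a ubH2A peak and 4 a Dzip3 peak, with 86 to 204 Ring1B reads. In the run chr9:122477754-122481053 none of the 5 peaks overlapped another list, although its Ring1B reads, 72 to 288, were in the same range. Its median Dzip3 reads were 12 and ubH2A reads 9, against 107 and 115 in the run on chromosome 1. The chromosome 9 run lies within 4 kb of the TSS of the non-coding gene 9530059O14Rik and 205 kb from Abhd5. Its peaks had a median repeated share of 0 and a median CpG ratio of 0.487, where those of the run on chromosome 1 had medians of 100% and 0.

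Some gene deserts flank developmental regulators, and the peaks between each pair of neighbouring TSS were counted for 9 gene lists. Homeobox genes flanked 54 desert peaks, or 3.54% (2.73% to 4.59%), where the same intervals hold 2.86% of the desert bases. T-box genes flanked 11, or 0.722% (0.404% to 1.29%) against 0.273% of bases, forkhead genes 14, or 0.919% (0.548% to 1.54%) against 0.482%, and bHLH genes 12, or 0.787% (0.451% to 1.37%) against 0.407%. For those 3 lists the interval lay above the share of bases, and for the homeobox list it contained it. The peaks flanked 4 T-box, 7 forkhead, 6 bHLH and 29 homeobox genes. The intervals treat peaks beside the same gene as separate. Counted by the nearest TSS only, the homeobox share was 1.90%, T-box 0.394%, forkhead 0.525%, the Gata to Ebf list 0.262% and ligands 0.328%, and the share of bases was not computed for that count. Sox genes flanked 13 peaks, or 0.853% (0.499% to 1.45%) against 0.690%. The Gata, Zic, Nr2f, AP-2 and Ebf genes flanked 15, or 0.984% against 1.38% of bases, and the genes of secreted ligands 12, or 0.787% against 1.08%.

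Cadherin and protocadherin genes, many of which border very large deserts, flanked 62 peaks, or 4.07% (3.19% to 5.18%) against 6.78% of the bases, which is fewer peaks than bases, and 2.43% by the nearest TSS only. Chemoreceptor genes flanked 20, or 1.31% (0.851% to 2.02%) against 0.430%, and of these 15 overlapped an input peak, with a median fold of 2.07. Without the input-overlapping peaks the chemoreceptor share was 0.420%. Among the regulator lists, input overlapped 7 of 54 homeobox, 0 of 13 Sox, 1 of 14 forkhead, 1 of 11 T-box and 2 of 12 bHLH peaks.

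Zeb2, a zinc finger homeobox gene of neural crest development, had 7 desert peaks at 303 to 2036 kb from its TSS in an interval of 3697 kb. Their Ring1B reads were 135, 70, 64, 90, 142, 34 and 103 from near to far, and their input reads 3, 2, 0, 4, 3, 7 and 12. The Dzip3 reads were 94, 51, 4, 60, 104, 37 and 96, and 3 of the peaks overlapped a Dzip3 peak. Ring1B reads were not ordered by the distance from Zeb2. Irx1, a homeobox gene of patterning, had 4 at 390 to 618 kb, and En1, of midbrain and limb patterning, 3 at 325 to 603 kb.

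Sox9, the regulator of cartilage and testis development, flanked 5 peaks at 239 to 562 kb, in the interval between it and Slc39a11. The farthest of them lay in an intron of Slc39a11. The Ring1B reads were 59, 66, 127, 78 and 78, the Dzip3 reads 29, 57, 100, 87 and 28 and the input reads 4 to 8. Of the 5, 2 overlapped a Dzip3 peak and 0 a peak of ubH2A or input. The share of repeated 31-base words was at most 16.1% in 4 of them and 45.7% in the other.

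Hand2, a bHLH gene of heart and limb development, had 5 at 101 to 573 kb, all of which overlapped a Dzip3 peak. From far to near the Ring1B reads were 144, 215, 69, 48 and 184 and the Dzip3 reads 224, 308, 67, 60 and 217. The repeated share was 63.9% to 100% in the 5. Foxp1, a forkhead gene, flanked 2 peaks at 254 and 255 kb, both in an intron of Eif4e3, whose TSS is the nearest. Of the 2, chr6:99471408-99472324 held 356 Ring1B, 52 Dzip3, 71 ubH2A and 8 input reads and overlapped no other list. It had a CpG ratio of 0.906 and a repeated share of 0.

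Tbx3, a T-box gene of limb and heart development, flanked 4 peaks at 526 to 957 kb with Ring1B reads of 59, 66, 77 and 58. All 4 overlapped a ubH2A peak. Those with 59 and 66 reads lay in introns of Med13l, whose TSS is the nearest to them. Between Bmp7 and Tcfap2c, which encode a secreted growth factor and the AP-2 gamma factor, lay 3 peaks with 64, 82 and 59 Ring1B reads and 2, 65 and 22 Dzip3 reads, and these count in both lists. Olfr161, an olfactory receptor gene, has the first protein-coding TSS of chromosome 16, and 9 of its 12 peaks overlapped an input peak, with Ring1B reads from 50 to 3681.

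In sequence, desert peaks lay between the desert around them and promoter peaks in GC content and stood out by repetition. Their median GC content was 48.2%, against 39.5% of all desert bases, 52.7% in peaks at 4 to 100 kb and 61.5% at promoters. The median CpG observed to expected ratio was 0.174, against 0.189 and 0.649. A 31-base word counted as repeated if it occurred more than once in the genome, copies within the same peak included. The share of repeated words had a median of 86.4% in desert peaks, 60.6% at 4 to 100 kb and 0 at promoters. At least 50% of the words were repeated in 1054 desert peaks (69.2%, 66.8% to 71.4%), and in 54.8% and 13.1% of the other classes.

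The copy number of the median 31-base word divided desert peaks into 471 with 1 copy, 262 with 2 to 9, 131 with 10 to 99, 92 with 100 to under 1000 and 568 with 1000 or more. The last were 37.3% of desert peaks (34.9% to 39.7%), against 10.1% at 4 to 100 kb and 0.430% at promoters. A Dzip3 peak overlapped 35.5% of desert peaks with 1 copy (31.3% to 39.9%) and 77.3% with 1000 or more (73.7% to 80.5%). For ubH2A the shares were 38.9% and 60.9%, and for input 20.6% and 23.8%. The rise was not even, with 54.6%, 65.6% and 46.7% for Dzip3 in the classes between, and the input share was lowest, 9.78%, at 100 to under 1000 copies. Among peaks of 1 copy the Dzip3 share was 35.5% in deserts, 18.8% at 4 to 100 kb (17.3% to 20.5%) and 4.02% at promoters (3.396% to 4.75%). Input overlap at 1 copy differed in the same order, with 20.6%, 8.42% and 2.13%. Without input-overlapping peaks the Dzip3 share in deserts was 19.0% at 1 copy and 74.8% at 1000 or more. That count by copy number was not made for the other distance classes, so they cannot be compared at 1 copy without input.

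**Figure D4:**
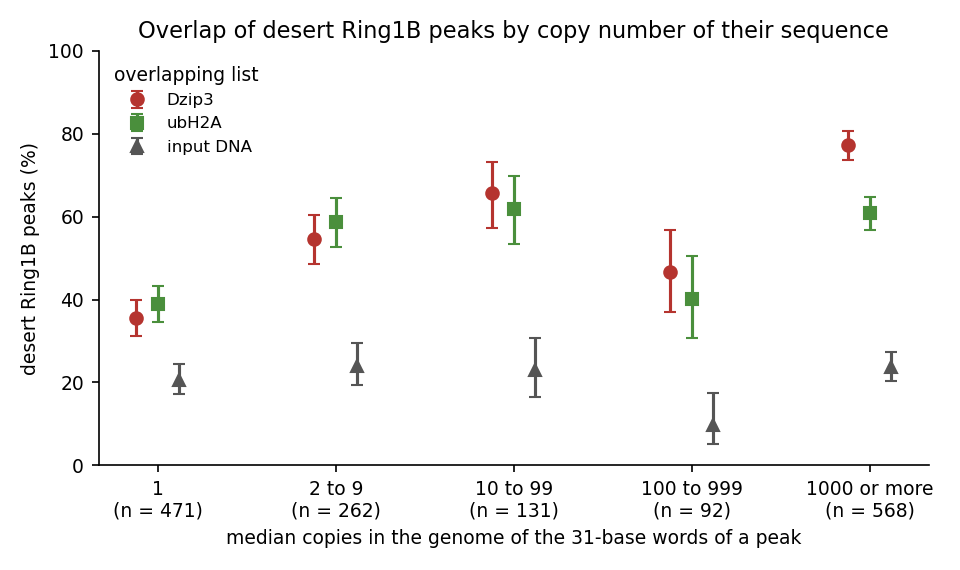
Share of desert Ring1B peaks, in percent, that overlap a Dzip3 (circles), ubH2A (squares) or input (triangles) peak, by the median number of genome copies of the 31-base words of the peak. Error bars are 95% Wilson intervals, and the Dzip3 share runs from 35.5% at 1 copy to 77.3% at 1000 or more.

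The deposited counts come from reads that the study describes as mapping uniquely, and how reads of repeated words were placed cannot be seen in the lists. The part of read placement in the overlap of repeated peaks was not tested. In peaks with 1000 or more copies the scaled reads were 6.44 Ring1B, 6.76 Dzip3, 4.10 ubH2A and 0.744 input reads per kb on the scale of the plot of reads, and in those with 1 copy 5.89, 2.91, 2.61 and 0.518. All libraries were higher in the repeated peaks, and Dzip3 by the widest margin.

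Particular words recurred. The word in capitals in the Sntg1 intron was found in 66 desert peaks on 17 chromosomes (4.33%), in 0.862% of peaks at 4 to 100 kb and in 1 promoter peak, and the genome holds 17418 copies. Of the 66, 54 overlapped a Dzip3 peak, 48 a ubH2A peak and 12 an input peak. The word in capitals in the chromosome X peak was found in 58 desert peaks (3.81%), with 6947 genome copies. Of these 25 overlapped a Dzip3 peak and 1 an input peak, the median fold was 22.1 and the median GC content 64.6%. The 2 words thus marked kinds of peaks that differed in GC content and in fold.

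More desert peaks lay near a copy of the first word than held it. A copy was within 8 kb of the centre of 544 desert peaks (35.7%, 33.3% to 38.1%), against 11.3% of peaks at 4 to 100 kb and 2.12% at promoters. The share of bases within 8 kb of a copy was not computed for any class. The shares of peaks therefore cannot be set against where the word lies. On the strand of the word, 383 of the 544 centres lay over 500 bp before it, 123 within 500 bp and 38 over 500 bp after it. A Dzip3 peak overlapped 396 of the 544, or 72.8%. No annotation of repeats was at hand, and the peaks are described by their words alone.

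**Figure D5:**
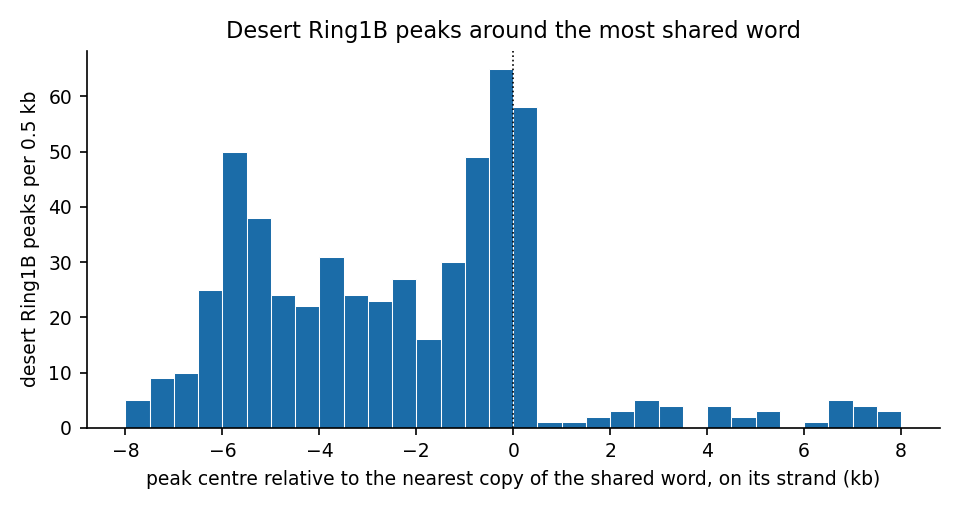
Number of desert Ring1B peaks in bins of 500 bp by the position of the peak centre relative to the nearest copy of the most shared 24-base word, in kb on the strand of the word, for the 544 peaks within 8 kb of a copy. The bins on either side of the word hold 65 and 58 peaks and the bin from -6000 to -5500 bp holds 50, while few peaks lie after the word.

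Tandem TTAGGG, the telomere hexamer, searched on both strands as 2 copies in a row, was found in 35 desert peaks (2.30%, 1.66% to 3.18%), 42 peaks at 4 to 100 kb (0.862%) and 5 promoter peaks (0.134%). All of them, 100% in each class, overlapped a Dzip3 peak, and of the 35 in deserts 34 overlapped a ubH2A peak and 21 an input peak. Their Ring1B reads ran from 48 to 3936 with a median of 216, and their median fold was 6.20. The E-box CACGTG was found in 4.59% of desert peaks, 8.09% at 4 to 100 kb and 10.7% at promoters. The E2F-type core TCCCGC was found in 3.67%, 8.42% and 33.5%. Both were thus scarcer in desert peaks. Each holds a CG dinucleotide, and the shares were not adjusted for the CpG content or the length of the peaks. CA repeated 5 times was found in 15.6%, 15.7% and 6.66%, and GA repeated 5 times in 1.90%, 3.10% and 1.96%. All motifs were searched on both strands, and 1 stretch may count for more than 1 motif.

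Peaks like a CpG island, with a GC content of at least 50% and a CpG ratio of at least 0.6, numbered 114 in deserts (7.48%, 6.26% to 8.91%), against 12.7% at 4 to 100 kb and 56.2% at promoters. Of these 40 were mostly unique in sequence and 74 mostly repeated. A Dzip3 peak overlapped 10.0% of the 40 (3.96% to 23.1%), 51.4% of the 74 (40.2% to 62.4%), 37.9% of the 430 other unique peaks (33.4% to 42.6%) and 68.7% of the 980 other repeated ones (65.7% to 71.5%). A ubH2A peak overlapped 5.00%, 35.1%, 42.1% and 60.4%. Of the 40, 2 overlapped an input peak, chr17:39979910-39985992 and chr6:3151412-3151710. Both were among the 4 with a Dzip3 peak, and they were the only ones of the 40 with a ubH2A peak. The chr17 peak, 6082 bp long, spanned a TSS of AY036118. It held 26716 Ring1B, 28124 Dzip3, 25515 ubH2A and 1455 input reads, and the chr6 peak held 226, 99, 207 and 49. Unique here means within the assembled chromosomes, so copies missing from the assembly were not counted. Mostly unique peaks with a CpG ratio of at least 0.6 were also counted whatever their GC content. A Dzip3 peak overlapped 11.4% of them in deserts (4.95% to 23.98%), 7.19% at 4 to 100 kb (5.21% to 9.83%) and 1.03% at promoters (0.675% to 1.57%). The desert interval contains that at 4 to 100 kb and lies above that at promoters. The median fold of the 40 was 30.05, and 17.5% of them lay within 4 kb of a TSS of a non-coding or pseudogene class.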

How the data were processed

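ChIP-seq was made of Ring1B, Dzip3 and ubH2A, with input DNA, in E14 cells; 1 library each, nothing pooled. Antibodies were raised in rabbits by the authors. Chromatin was sheared by sonication per the labels, whereas the study's methods describe micrococcal nuclease. The authors aligned reads to mm9 with 1 mismatch allowed, described the retained reads as mapping uniquely, and called peaks in Partek Genomics Suite, each library by itself, at FDR 0.1. The deposited lists hold counts (reads of each library in a peak and the height in extended reads), the height in RPM, the fold over input as a ratio, and the percent of a peak covered by the other lists. Height divided by RPM gave library sizes, in 1e6 reads, of 51.8 for Ring1B, 53.3 for Dzip3, 67.0 for ubH2A and 48.3 for input. A summary row with no position in the ubH2A and input lists, 1 in each, was left out.

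Distances ran from the peak edge to every TSS of the 22380 protein-coding genes of GENCODE vM1 (Ensembl 65, mm9). Position was read at the peak centre, overlap from the listed percentages (at least 1 bp), and runs joined gaps of at most 50 kb. Words of 31 bases were counted over the genome on both strands; they replaced the planned soft-masked share because the genome file is not soft-masked. Shares have 95% Wilson intervals. Code was tested on simulated data, with 3000 of 3000 distances and overlaps right. The work used pysam 0.24.0, numba 0.67.0, scipy 1.17.1, pandas 2.3.3 and numpy 2.4.6 under Python 3.11.15.

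Peaks were named by fixed rules: the 10 highest, 5 longest, 5 with no other list and 5 with most Dzip3 reads per kb, all without an input peak; the 5 farthest; the 5 runs with most peaks and, without input, the 3 longest; the 10 host genes with most peaks; and up to 5 genes of each of 9 lists. Runs without input that have most peaks, Foxp1, SNORD116 and the other non-coding genes, and the CpG-rich groups were picked after their values were seen. Some peaks and genes that these rules select are not reported here. The members and lists were chosen with earlier results of these data known. Alternatives were other distance limits, TSS sets, overlap and height limits, run gaps, and leaving out input-overlapping peaks.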

Additional observations from a re-analysis of the deposited data

How the results depend on the processing

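No paired analysis was possible because each target has 1 library and no result comes from a test. The number of desert peaks was 2624 with a limit of 50 kb, 851 with 200 kb and 820 with the TSS of all genes. Among peaks of at least the median height, the shares overlapping Dzip3, ubH2A, input and no other list were 80.8%, 72.4%, 35.3% and 12.8%. Beyond 200 kb they were 61.1%, 55.1%, 24.8% and 28.2%. Without input-overlapping peaks, Dzip3 was 48.2%, ubH2A 40.5%, no other list 40.1%, introns 14.5%, intergenic 81.0%, the share in runs 31.1% and the chemoreceptor share 0.420%. The share in runs was 24.7% with gaps within 10 kb and 44.4% within 100 kb. Counted by the nearest TSS only, homeobox genes had 1.90%, forkhead 0.525%, T-box 0.394%, the Gata to Ebf list 0.262%, ligands 0.328% and cadherins 2.43%. Of the alternatives chosen after seeing the data, peaks with under 50% repeated words gave 35.5% for Dzip3, 38.9% for ubH2A and 53.8% for no other list, leaving out runs of 10 or more gave 49.4% for ubH2A and 19.1% for input, and leaving out chromosome Y gave 20.7% for input among peaks in runs. The cause was not tested. The other 33 planned and 4 added values moved by less than their interval or, for counts and medians, by less than 1.5 times. Depth limits the lists, since weaker signal forms no peak, and no value has a replicate.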
